A study of Mus musculus with 6 samples.

Results

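Expression of 8 Schwann cell and myelin genes, *Mbp*, *Pmp22*, *Prx*, *Mag*, *Sox10*, *Egr2*, *Ngfr* and *Gfap*, was compared between HrasG12V and wild-type (WT) gastrocnemius muscle, the large muscle of the calf. The genes were chosen by name, for their place in the Schwann cell lineage, with earlier results of these data known. All 8 of 8 were among the 23997 gene symbols listed for each library. RNAseq was carried out on 3 mice per genotype at 21 days of age, with 1 library per mouse and no treatment. HrasG12V mice carried Caggs-Cre and 1 recombined *Hras* allele that encodes the G12V protein from the gene's own promoter. WT littermates carried the same floxed allele without Cre, so the allele was present but unrecombined in them. Caggs-Cre is driven by a ubiquitous promoter, and the mutation was therefore not restricted to muscle fibers or to Schwann cells. The mice were of mixed strain (SWR/J, 129S1/SvImJ and C57BL/6J). HrasG12V mice are numbered 2276, 2278 and 2279, and WT mice 2277, 2280 and 2281. Values are FPKM, a level for each gene that is scaled to the reads of the library and divided by transcript length and may thus be compared between genes.

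Schwann cells are the glia of peripheral nerve. Some wrap a single axon in a compact sheath of myelin, and others hold several small axons without myelin. *Sox10* maintains the lineage at all stages, and with its partner *Egr2* (also called Krox20) it switches on the genes of the myelin sheath when the cells mature after birth. Immature Schwann cells, nonmyelinating Schwann cells and the repair cells that appear after nerve injury instead express *Ngfr* (the low-affinity neurotrophin receptor p75) and *Gfap* (an intermediate filament), and myelin genes and these genes usually run in opposite directions. A muscle carries intramuscular nerve branches and the terminal Schwann cells that cap the neuromuscular junction, so these RNAs form a small part of a whole-muscle sample. In such a bulk sample a different number of Schwann cells and a different amount of RNA per cell cannot be told apart.

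The libraries set the frame for these genes. Fast muscle fiber genes were abundant in all 6 libraries, with *Mylpf* at 10760 to 36114 FPKM and *Pvalb* at 10828 to 32969, although *Acta1* and *Myh4*, which every fast muscle uses, were listed at 0 throughout, *Myh1* in 2 WT mice and *Tnnt3* in mouse 2276, so a listed 0 in these libraries need not mean absence. The summed FPKM was 814013 in HrasG12V mouse 2276 and 413020 to 547122 in the other 5 libraries, and log2 levels correlated across genes at 0.84 to 0.88 between HrasG12V mice and 0.92 to 0.93 between WT mice. *Hras* itself overlapped between genotypes (34.6 ± 21.9 FPKM in HrasG12V and 41.5 ± 8.92 in WT, mean ± SD, n = 3), and since both alleles give the same symbol its level does not check the labels. B cell genes (*Cd79a*, *Cd79b* and *Ms4a1*, summed) came to 56.0 FPKM in HrasG12V mouse 2278 and 43.96 in 2279, against 1.22 in 2276 and 0.488 to 0.986 in the WT mice. T cell genes (*Cd3e*, *Cd3d*, *Cd3g* and *Cd2*) came to 22.9 and 27.2 in the same 2 mice, 1.01 in 2276 and 0.552 to 0.833 in WT. Y-linked transcripts were present in 4 mice, 2 of each genotype, and absent from mice 2276 and 2277, which had *Xist*, and the labels give no sex.

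All 7 members that could be tested had a higher mean in HrasG12V muscle. A positive log2 fold change was held by 46.6% of all genes tested, and by 4 of the 7 members without mice 2278 and 2279. With all mice, 3 of the 7, *Ngfr*, *Mag* and *Pmp22*, had an unadjusted limma p below 0.05. Limma is a linear model, run here on log2(FPKM + 0.1), that shares information on spread across genes. Of the 13359 genes tested, 10.2% passed that limit in either direction and 5.18% passed it as higher in HrasG12V. None of the 7 had an adjusted p below 0.05, which 8 genes (0.0599%) reached. Members past the unadjusted limit numbered 6 of 7 without HrasG12V mouse 2276, where 29.8% of all genes tested passed, and 1 of 7 when libraries were set to an equal sum of FPKM, where 5.33% did. Without mice 2278 and 2279 it was 1 of 7 beside 47.2% of all genes, in a fit that takes the spread of the lone HrasG12V mouse from the WT mice. The median log2 fold change was 1.05 over the 4 myelin protein genes, and that of all genes tested was -0.03. *Gfap* stayed below the minimum of a mean of 0.5 FPKM and received no test. The 4 myelin protein genes and *Ngfr* thus had their fitted differences in the same direction.

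**Figure D1:**
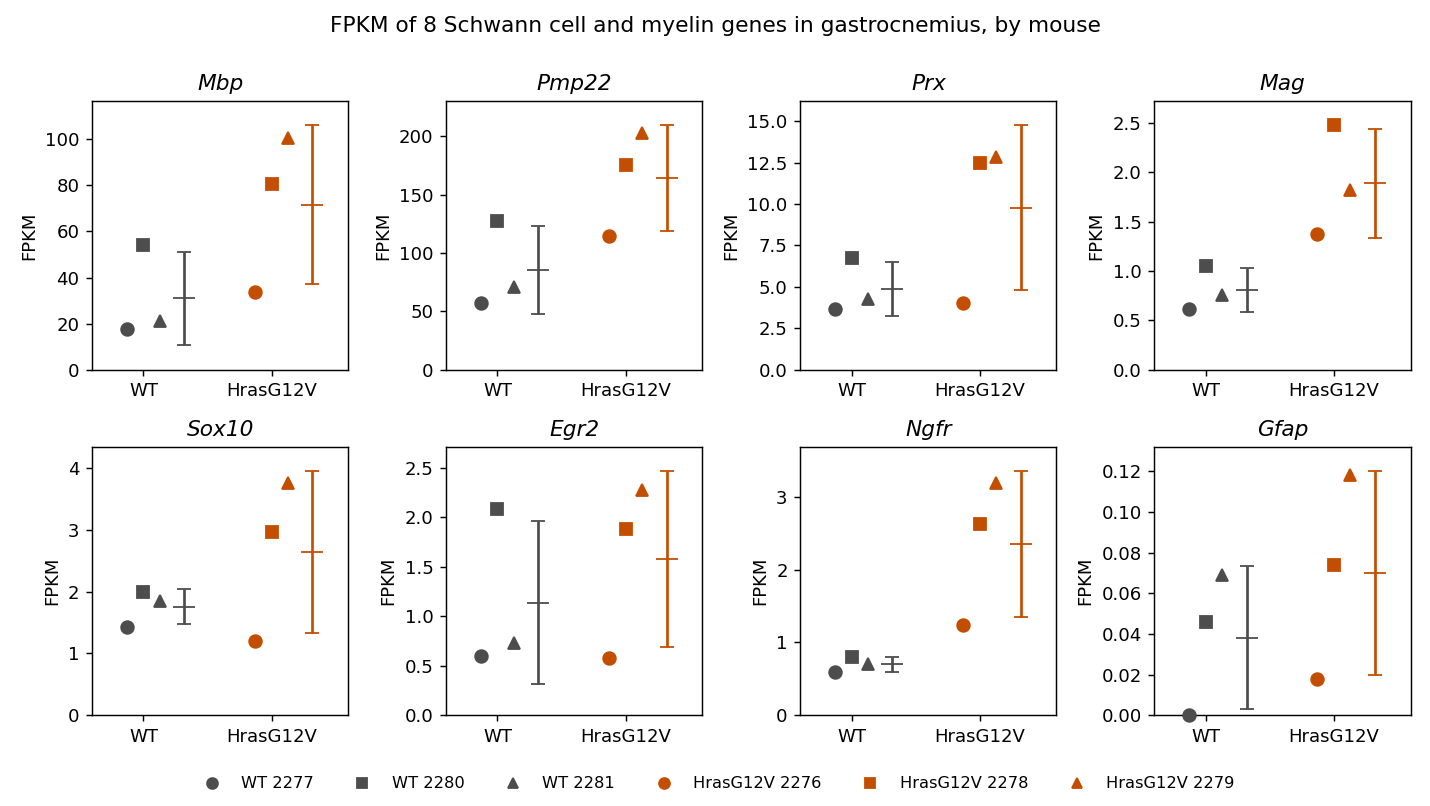
FPKM of each of the 8 genes (vertical axis, linear from 0, a scale of its own in each panel) in each mouse (points, marked by mouse number), with mean ± SD of 3 mice beside them. In *Ngfr* and *Mag* every HrasG12V mouse lies above every WT mouse, and in the other 6 genes the genotypes overlap.

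The promoters of *Mag*, *Prx* and *Ngfr* are shown because they stand for a myelin gene whose level separated the genotypes, a myelin gene whose level did not, and the single immature or repair marker among the 8 members that was tested. Each is the stretch upstream of the transcription start in RefSeq on GRCm38.p6, 5′ to 3′ on the gene's own strand. Of the 8 members, 6 matched an entry of the promoter table, the others being *Mbp* and *Sox10*. Capitals mark ACAAAG, the letters bound by SOX proteins, GTGGGTG or GTGGGCG, letters bound by EGR proteins, and GGGCGG, a GC box, on either strand. The motifs do not overlap in the windows shown.
Mag (chr7:30914923-30915172, minus strand): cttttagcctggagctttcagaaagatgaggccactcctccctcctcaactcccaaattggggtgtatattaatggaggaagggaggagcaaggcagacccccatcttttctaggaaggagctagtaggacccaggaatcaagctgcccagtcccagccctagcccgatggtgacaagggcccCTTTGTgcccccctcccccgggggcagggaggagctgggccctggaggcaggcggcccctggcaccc
Prx (chr7:27499074-27499323, plus strand): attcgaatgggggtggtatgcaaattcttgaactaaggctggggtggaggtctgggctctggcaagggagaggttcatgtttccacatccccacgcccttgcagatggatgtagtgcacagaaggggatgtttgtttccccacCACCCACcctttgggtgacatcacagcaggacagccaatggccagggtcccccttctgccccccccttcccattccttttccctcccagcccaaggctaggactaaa
Ngfr (chr11:95587736-95587948, minus strand): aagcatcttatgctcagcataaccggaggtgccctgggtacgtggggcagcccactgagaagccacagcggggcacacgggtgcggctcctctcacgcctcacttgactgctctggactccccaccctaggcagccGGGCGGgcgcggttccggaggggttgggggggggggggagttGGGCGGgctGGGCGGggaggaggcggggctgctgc
The *Mag* window held 1 SOX match, on the reverse strand, and no EGR match. The *Prx* window held 1 EGR match, also on the reverse strand, and no SOX match. The *Ngfr* window, 213 bases long and 70.9% G or C, held 3 GC boxes and neither of the others. Of all 32851 RefSeq promoter windows of 250 bases, 16.5% held ACAAAG, 7.36% GTGGGTG, 7.02% GTGGGCG and 32.7% GGGCGG. No binding was measured, and a match is only a match of letters.

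*Ngfr*, on chromosome 11 of GRCm38 from 95568818 to 95587735 (GENCODE vM21, minus strand), showed the largest difference of the 7 members tested. Its level was 1.24, 2.63 and 3.19 FPKM in HrasG12V mice 2276, 2278 and 2279 and 0.595, 0.797 and 0.706 in WT mice 2277, 2280 and 2281. All 3 HrasG12V mice were above all 3 WT mice, a pattern held by 8.11% of all genes tested. The log2 fold change was 1.53 ± 0.37 (SE; 95% interval 0.63 to 2.42), a fold of 2.88, with an unadjusted limma p of 0.00522 and an adjusted p of 0.378. Mouse 2276, at 1.24 FPKM, had a B cell sum of 1.22 and a T cell sum of 1.01 FPKM, each above the highest WT mouse (0.986 and 0.833) and far below mice 2278 and 2279. When the other 2 HrasG12V mice were left out, that mouse alone against WT gave a log2 fold change of 0.76. That fit takes its spread from the WT mice, and its p is not comparable with the others. Apart from that fit, *Ngfr* kept an unadjusted limma p below 0.05 in every alternative tried.

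*Gfap*, the other immature or repair marker, lies on chromosome 11 from 102887336 to 102900912 (minus strand) and was barely detected. A noncoding gene, *Gm26668*, overlaps it on the other strand. *Gfap* was listed at 0.0180, 0.0741 and 0.118 FPKM in HrasG12V mice 2276, 2278 and 2279, and at 0, 0.0458 and 0.0691 in WT mice 2277, 2280 and 2281. The genotypes overlapped. The difference in *Ngfr* was thus not matched by a measurable level of *Gfap*.

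*Mag*, the myelin-associated glycoprotein, sits in the innermost, noncompact layer of the sheath, next to the axon. The gene lies on chromosome 7 from 30899176 to 30914873, minus strand. It was at 1.37, 2.47 and 1.82 FPKM in HrasG12V mice 2276, 2278 and 2279, and at 0.617, 1.05 and 0.759 in WT mice 2277, 2280 and 2281. As for *Ngfr*, the genotypes did not overlap. The log2 fold change was 1.12 ± 0.31 (SE; 95% interval 0.38 to 1.86) with an unadjusted limma p of 0.00952 and an adjusted p of 0.396. With the libraries set to an equal sum the unadjusted limma p was 0.0751, and without mice 2278 and 2279 the log2 fold change was 0.73. *Mag* is on the list of increased genes that the study drew from these same samples, so its direction is not independent evidence.

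*Pmp22* and *Mbp* encode proteins of compact myelin, a membrane protein and a protein that holds the cytoplasmic faces together, and they were the most abundant members. *Pmp22*, on chromosome 11 from 63128982 to 63159547 (plus strand), stood at 114, 176 and 203 FPKM in HrasG12V mice 2276, 2278 and 2279 and at 57.3, 128 and 71.1 in WT mice 2277, 2280 and 2281. WT mouse 2280 lay above HrasG12V mouse 2276, so the genotypes overlapped. The log2 fold change of *Pmp22* was 0.99 ± 0.38 (SE; 95% interval 0.08 to 1.89), with an unadjusted limma p of 0.0368 and an adjusted p of 0.481. In 4 of the 6 sets of 5 mice its unadjusted limma p no longer met the limit, at 0.131 without WT mouse 2277, 0.110 without 2281, 0.0989 without HrasG12V mouse 2278 and 0.114 without 2279. It met the limit in the other 2 sets, at 0.0108 without WT mouse 2280 and 0.0188 without HrasG12V mouse 2276. *Pmp22* is also transcribed outside nerve, for example in fibroblasts and endothelium, and its level is not a measure of myelin alone.

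*Mbp* was at 33.7, 80.5 and 100.7 FPKM in HrasG12V mice 2276, 2278 and 2279 and at 17.5, 54.3 and 21.1 in WT mice 2277, 2280 and 2281. Mouse 2280 again overlapped with mouse 2276. The log2 fold change was 1.25 ± 0.56 (SE; 95% interval -0.10 to 2.60) with an unadjusted limma p of 0.0640. The unadjusted limma p was 0.0179 without WT mouse 2280 and 0.0203 without HrasG12V mouse 2276, and 0.177 to 0.205 with each of the other 4 mice left out. Without mice 2278 and 2279 the log2 fold change was 0.31. The *Mbp* gene also gives the longer golli transcripts, made in neurons and immune cells, and a value per gene symbol does not separate them.

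*Prx*, or periaxin, links the outer surface of the myelinating Schwann cell to its basal lamina. The gene, on chromosome 7 from 27499324 to 27520214 (plus strand), is overlapped on the other strand by the antisense gene *Gm15541*, and how the counting treated strand is not given in the sources used here. Its level was 4.03, 12.5 and 12.8 FPKM in HrasG12V mice 2276, 2278 and 2279 and 3.65, 6.73 and 4.30 in WT mice 2277, 2280 and 2281. Mouse 2276 lay within the WT range, while the other 2 HrasG12V mice were above it. The log2 fold change was 0.86 ± 0.48 (SE; 95% interval -0.30 to 2.01) with an unadjusted limma p of 0.122. Leaving out mouse 2276 gave 1.40 with an unadjusted limma p of 0.00350. The value was 0.60 without mouse 2278, 0.58 without 2279, and turned to -0.23 without both.

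The 2 transcription factors had the smallest fitted differences of the 7 members tested, and neither passed the limit. *Sox10* lies on chromosome 15 from 79154908 to 79165240 (minus strand) and *Egr2* on chromosome 10 from 67535475 to 67542188 (plus strand). *Sox10* was at 1.20, 2.97 and 3.75 FPKM in HrasG12V mice 2276, 2278 and 2279 and at 1.44, 1.99 and 1.85 in WT mice 2277, 2280 and 2281. Mouse 2276 had the lowest level of all 6 mice and the other 2 HrasG12V mice the highest. The *Sox10* log2 fold change was 0.43 ± 0.42 (SE; 95% interval -0.56 to 1.43) with an unadjusted limma p of 0.334. Leaving out mouse 2276 gave 0.90 with an unadjusted limma p of 0.00564. The value was 0.28 without mouse 2278, 0.12 without 2279, and turned to -0.50 without both.

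*Egr2*, which drives the myelin program, was at 0.576, 1.88 and 2.27 FPKM in HrasG12V mice 2276, 2278 and 2279 and at 0.597, 2.08 and 0.728 in WT mice 2277, 2280 and 2281. High and low mice crossed the genotypes, with WT mouse 2280 beside HrasG12V mice 2278 and 2279, and mouse 2276 beside the other WT mice. For *Egr2* the log2 fold change was 0.45 ± 0.63 (SE; 95% interval -1.06 to 1.95) with an unadjusted limma p of 0.502, and it turned to -0.67 without mice 2278 and 2279. *Egr2* is also induced in activated lymphocytes. *Egr3*, an immediate early gene of the same family, was at 0.237, 2.37 and 2.15 FPKM in HrasG12V mice 2276, 2278 and 2279 and at 0.461, 0.927 and 0.383 in WT mice 2277, 2280 and 2281, and was picked here after its values were seen. Of 10 immediate early genes, which neurons, glia and muscle all induce within minutes of a stimulus, 8 had a positive log2 fold change (median 0.61). Of the 10, *Junb* alone passed the unadjusted limit, *Fosb* was highest at 1.06 ± 0.55 (SE) and *Nr4a1* lowest at -0.72 ± 0.34.

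**Figure D2:**
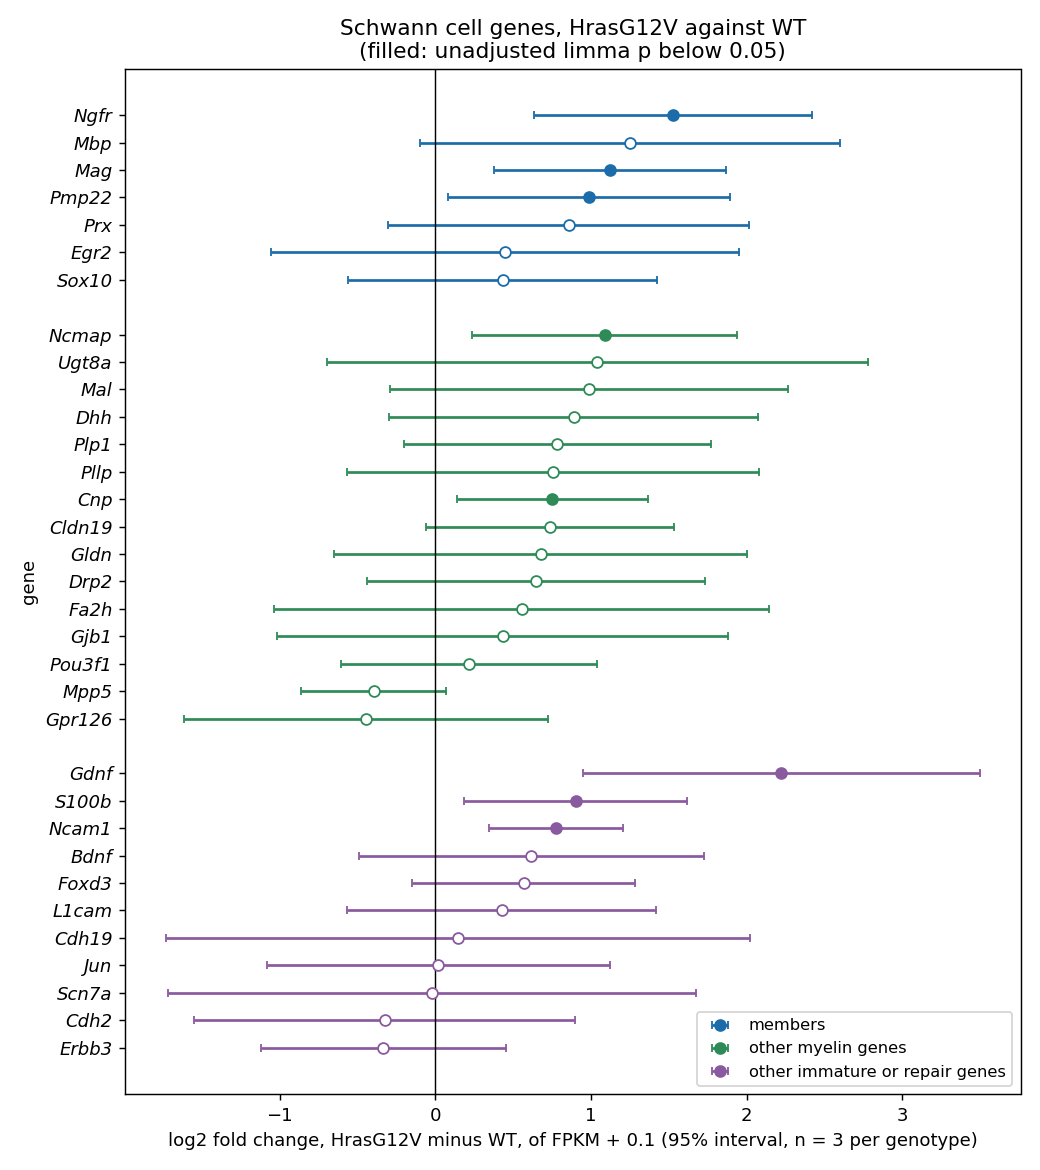
Log2 fold change, HrasG12V minus WT, with its 95% limma interval (horizontal axis) for the 7 tested members, the 15 tested other myelin genes and the 11 tested other immature or repair genes (vertical axis). Filled points had an unadjusted limma p below 0.05, and most intervals, including those of *Mbp*, *Prx*, *Sox10* and *Egr2*, cross 0.

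The members had similar orders of mice. WT mouse 2280 had the highest WT level in 7 of the 8 members, and mouse 2276 the lowest HrasG12V level in 8 of 8. The share of all genes tested with these orders was not counted, so they cannot be called particular to the members. Each member was therefore set against *Sox10*, which marks the lineage, within the same mouse. The ratio of *Ngfr* to *Sox10* was 1.04, 0.886 and 0.849 in HrasG12V mice 2276, 2278 and 2279 against 0.414, 0.401 and 0.382 in WT mice 2277, 2280 and 2281. The group means were 0.924 ± 0.0995 and 0.399 ± 0.0164 (SD, n = 3), and the genotypes did not overlap. Of all other genes tested, 2.13% had a ratio to *Sox10* that was higher in every HrasG12V mouse than in every WT mouse. No other member had a ratio to *Sox10* that did not overlap between genotypes.

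For the myelin proteins the ratio to *Sox10* overlapped between genotypes. The ratio of *Mbp* to *Sox10* was 28.1, 27.1 and 26.8 in HrasG12V mice 2276, 2278 and 2279 and 12.2, 27.3 and 11.4 in WT mice 2277, 2280 and 2281, so WT mouse 2280 matched the HrasG12V mice. The ratio of *Mag* to *Sox10* was 0.821 ± 0.330 in HrasG12V and 0.455 ± 0.0619 in WT mice, with HrasG12V mouse 2279 at 0.484 inside the WT range. For *Prx* the means were 3.65 ± 0.472 and 2.75 ± 0.560, and for *Pmp22* 69.5 ± 22.5 and 47.6 ± 14.5. The ratio of *Egr2* to *Sox10* was 0.573 ± 0.0823 in HrasG12V and 0.618 ± 0.370 in WT mice. These ratios are descriptions, and they received no test.

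**Figure D3:**
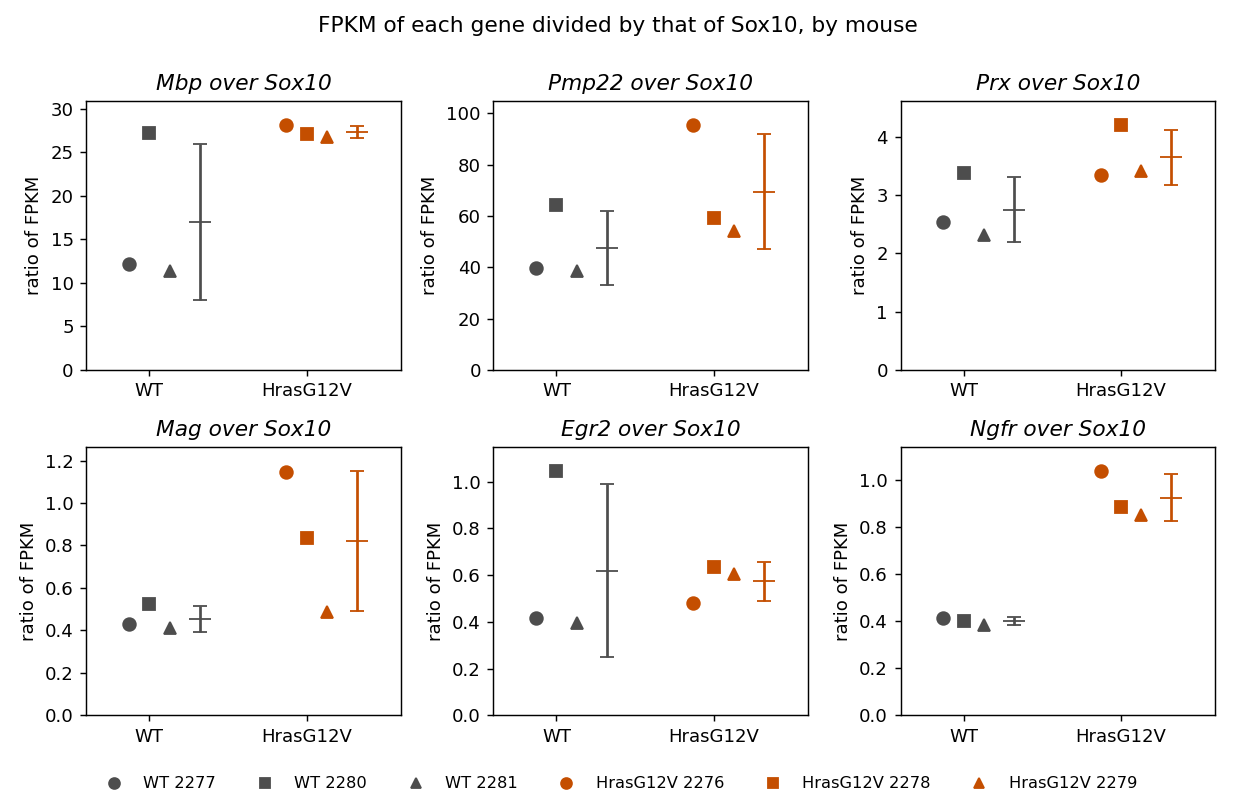
FPKM of 6 members divided by the FPKM of *Sox10* in the same mouse (vertical axis, linear from 0), for each mouse (points) with mean ± SD of 3 mice. The ratio for *Ngfr* lies between 0.849 and 1.04 in HrasG12V and between 0.382 and 0.414 in WT mice, and the other 5 ratios overlap.

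Myelinating markers were then set against immature or repair markers. The mean log2(FPKM + 0.1) of *Mbp*, *Pmp22*, *Prx* and *Mag* minus that of *Ngfr* and *Gfap* was 4.96, 5.24 and 4.98 in HrasG12V mice 2276, 2278 and 2279, and 4.78, 5.40 and 4.56 in WT mice 2277, 2280 and 2281. The HrasG12V values lay inside the WT range, and the difference of the means, 0.15, was below the SD of the WT mice, 0.44. Adding 0.01 in place of 0.1 turned that difference to -0.20, adding 1 made it 0.42, and quantile normalization 0.46. With *Ngfr* alone in place of the pair, the difference was 3.20, 3.25 and 3.02 in the HrasG12V mice and 3.38, 4.09 and 3.43 in the WT mice, so that all 3 HrasG12V mice were below all 3 WT mice. In single ratios of FPKM, *Ngfr* over *Prx* and *Ngfr* over *Pmp22* did not overlap between genotypes, while *Ngfr* over *Mbp* and *Ngfr* over *Mag* did. *Ngfr* alone already separated the genotypes. The share of all genes that separate in this way was not counted for this difference or these ratios. Whether the genotypes overlapped in this balance thus depended on the genes counted in, among them *Gfap*, which is near 0.

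Within the 4 mice that had Y-linked transcripts, 2 per genotype, both HrasG12V mice were above both WT mice in 7 of the 8 members, the exception being *Egr2*. Of all genes tested, 22.4% showed this pattern in the same 4 mice. The log2 difference there was 1.82 for *Ngfr*, 1.41 for *Mbp*, 1.22 for *Prx*, 1.16 for *Mag*, 0.98 for *Pmp22*, 0.77 for *Sox10*, 0.69 for *Egr2* and 0.31 for *Gfap*. Between mice 2276 and 2277, which lacked these transcripts, it was 1.04 for *Mag*, 0.998 for *Pmp22*, 0.95 for *Ngfr* and 0.94 for *Mbp*. In that pair it was 0.14 for *Prx*, 0.24 for *Gfap*, -0.04 for *Egr2* and -0.24 for *Sox10*, so both transcription factors took the opposite direction there. The pair holds 1 mouse per genotype and has no replicate.

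Other genes of the myelinating Schwann cell mostly had higher means in HrasG12V muscle. Of 16 such genes found, 15 were tested, 13 had a positive log2 fold change, 2 were positive with an unadjusted limma p below 0.05, and none passed the adjusted limit. Of all genes tested, 46.6% had a positive log2 fold change and 5.18% passed the unadjusted limit as higher. Their median log2 fold change was 0.74, against -0.03 for all genes tested, and it was -0.28 without mice 2278 and 2279. With single mice left out it ran from 0.46 without HrasG12V mouse 2279 and 0.48 without WT mouse 2277 to 1.21 without HrasG12V mouse 2276. The 2 that passed were *Ncmap*, a noncompact myelin protein with the highest log2 fold change of the list at 1.09 ± 0.36 (SE), and *Cnp*, an enzyme of myelinating glia, at 0.75 ± 0.26. Both were above the WT range in all 3 HrasG12V mice, a pattern held by 8.11% of all genes tested. *Mpp5*, a scaffold protein of the myelinating cell's polarity complex, was below the WT range in all 3, at 5.45 to 8.20 FPKM against 8.99 to 10.01 in WT mice (log2 fold change -0.40 ± 0.19, SE). The share of all genes in that reverse pattern was not counted.

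*Gpr126*, a receptor on Schwann cells needed to begin myelination, had the lowest log2 fold change of these genes at -0.45 ± 0.49 (SE), with 0.314 FPKM in mouse 2276 and 1.02 to 1.21 in the other 5 mice. As for *Prx* and *Sox10*, mouse 2276 was not among the high mice.

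Of 17 other immature, nonmyelinating or repair genes, 11 were tested, 8 had a positive log2 fold change and 3 passed the unadjusted limit, all higher in HrasG12V. The shares over all genes tested were 46.6% positive and 5.18% past the limit as higher. The median of the list was 0.43, and it was -0.059 without mice 2278 and 2279, 0.18 without 2278 alone and 0.68 without 2276. With only genes of a mean of at least 1 FPKM kept, the median was 0.018. The 3 were *Gdnf*, *S100b* and *Ncam1*. *Gdnf*, a neurotrophic factor made by repair Schwann cells and also by muscle, had the highest value. It was at 0.963, 0.909 and 2.59 FPKM in HrasG12V mice 2276, 2278 and 2279 and at 0.144, 0.337 and 0.166 in WT mice 2277, 2280 and 2281, and its log2 fold change was 2.22 ± 0.53 (SE; unadjusted limma p 0.00478, adjusted p 0.371). *Ncam1*, an adhesion molecule of nonmyelinating Schwann cells that is also made by muscle fibers, was at 7.39 to 9.35 FPKM in HrasG12V and 4.17 to 5.70 in WT mice. *S100b*, a calcium-binding protein of Schwann cells and also of fat cells, was at 2.06 to 4.01 FPKM in HrasG12V and 1.32 to 2.01 in WT mice.

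Other genes of the same list did not pass the limit. *Erbb3*, the neuregulin receptor of Schwann cells, had the lowest value, -0.33 ± 0.33 (SE; unadjusted limma p 0.345). *Jun*, which drives the repair program, stood at 0.02 ± 0.46. *Sox2*, *Shh*, *Olig1*, *Artn*, *Gap43* and *Runx2* stayed below the minimum and were not tested. No gene of the list passed the unadjusted limit as lower in HrasG12V muscle.

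Of 8 genes of the Schwann cell basal lamina and its receptors, 7 had a negative log2 fold change, none passed the unadjusted limit, and the median was -0.20. The highest by log2 fold change was *Itgb4*, a receptor of myelinating Schwann cells, at 0.33 ± 0.45 (SE), and the lowest *Itga6*, its partner, at -0.58 ± 0.26. In 6 perineurial genes the median was -0.10, and *Slc2a1*, a glucose transporter of the nerve sheath and of vessels, passed the unadjusted limit at 0.59 ± 0.21, while *Tjp1* was lowest at -0.66 ± 0.29. Of 6 axonal and neuronal genes, 3 were tested and none passed the unadjusted limit. The highest by log2 fold change, *Uchl1*, was at 0.806 to 3.05 FPKM in WT and 1.66 to 4.75 in HrasG12V mice, and the lowest, *Prph*, at 0.579 to 1.55 and 0.301 to 0.803. The neurofilament genes *Nefl*, *Nefm* and *Nefh* were at most 0.180 FPKM in any mouse. The cell bodies of motor neurons, where most neuronal RNA is made, lie in the spinal cord.

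*Mbp*, *Mag* and *Gfap* are also genes of central nervous system glia. Of the 4 markers listed for those cells, *Mog* and *Mobp* were near 0 and *Aqp4* was not. *Mog* was at most 0.0501 FPKM and *Mobp* at most 0.0430 in any mouse. *Aqp4*, also a gene of fast muscle fibers, was at 46.1 to 54.0 FPKM in WT and 6.70 to 24.6 in HrasG12V mice. It was the single gene of that list that was tested, and its log2 fold change was -1.90 (unadjusted limma p 0.00431, adjusted p 0.369).

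Among markers of other cells, those of B cells, T cells and fat cells moved with the mice that were highest for the members. For macrophage, fibroblast and endothelial genes the median log2 differences from the WT mean were 0.81, 0.09 and -0.19 in mouse 2278. In mouse 2279 they were 0.06, -1.71 and -0.19. All 3 B cell genes and all 4 T cell genes had positive log2 fold changes, with medians of 3.84 and 3.29, from *Ms4a1* (3.52) to *Cd79a* (4.13) and from *Cd3d* (2.39) to *Cd3g* (3.57), and their levels in mice 2278 and 2279 were given above. *Ms4a1* was at 0 in mouse 2276. The 4 adipocyte genes (median 1.27, from *Fabp4* at 0.39 to *Plin1* at 1.90) were 1.96 and 1.98 above the WT mean in mice 2278 and 2279 (median log2 difference), 0.13 above in mouse 2276, and -1.47 to 0.83 in WT mice. Their summed level, mostly *Fabp4*, was 772 to 811 FPKM in HrasG12V and 400.2 to 701 in WT mice. Of 5 macrophage genes found, 4 had a positive log2 fold change (median 0.43, from *Emr1* at -0.22 to *C1qa* at 0.59). All 5 fibroblast genes had a negative one (median -0.54, from *Col1a2* at -1.61 to *Dcn* at -0.15), as did 3 of 4 endothelial genes (median -0.25, from *Cdh5* at -0.66 to *Cldn5* at 0.03). The part of these cells in the levels of *Mbp*, *Pmp22*, *Prx*, *Mag*, *Sox10*, *Egr2* and *Ngfr* was not tested. *Ngfr* is also expressed by follicular dendritic cells of lymphoid tissue.

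**Figure D4:**
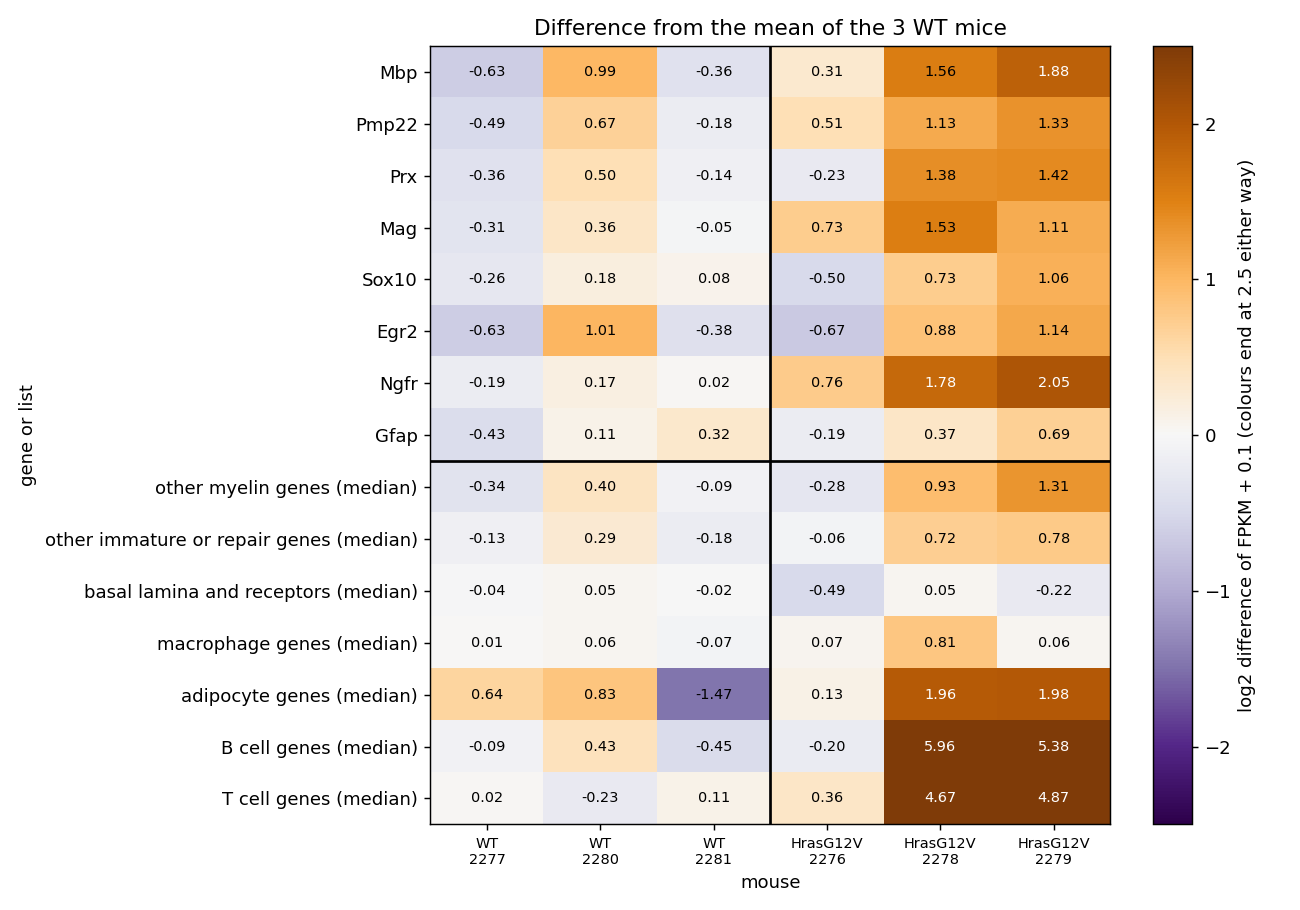
Difference of each mouse from the mean of the 3 WT mice, as log2 of FPKM + 0.1 (colour and number), for the 8 members and for the medians of 7 gene lists. Mice 2278 and 2279 are high for the members, adipocyte, B cell and T cell genes alike, while mouse 2276 is positive for *Mbp*, *Pmp22*, *Mag* and *Ngfr* and negative for *Prx*, *Sox10*, *Egr2* and *Gfap*.

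The genes whose levels over the 6 mice were most like the mean of the 4 myelin proteins were *Kif19a* (Pearson's r = 0.999), *Pdlim2* (0.993), *Casp4* (0.992), *Gm11149* (0.989) and *Rasgef1b* (0.989). For *Egr2* they were *Traf3ip2* (0.995), *Snord47* (0.991) and *Sbspon* (0.988). For *Ngfr* they were *Tmem176b* (0.996) and *H2-K1* (0.996), a class I histocompatibility gene. These r are over 6 mice that share genotype and the lymphocyte levels above, and 67, 20 and 197 of the genes tested exceeded r = 0.95 for the 3 patterns. The 15 tested other myelin genes had a median r of 0.92 to the mean of the myelin proteins, the 11 immature or repair genes 0.60, and all genes tested -0.12.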

How the data were processed

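Gastrocnemius RNA of 6 mice, 3 per genotype, was sequenced from mRNA with a strand-specific kit, in single-end reads. The authors mapped reads with TopHat and deposited FPKM per gene symbol from Cufflinks and Cuffnorm, which scales libraries to each other. The submitters' processing notes name bcl2fastq and GRCm38 (mm10), and neither versions nor an annotation is given in the sources used here. The study's methods give a nominal number of reads per sample, but the reads of each library could not be recovered, since ratios of values below 0.1 FPKM between 2 libraries spread widely (1.20% to 8.83% in the fullest interval of 0.02 log2 units), so no counting error could be given and precision was judged from the spread between mice. Each mouse is a separate animal.

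Genotypes came from the labels. For the 13359 genes whose FPKM averaged 0.5 or more over the mice, log2(FPKM + 0.1) was compared with limma 3.58.1 in R 4.3.3 (trend over abundance, two-sided, no covariate, Benjamini-Hochberg adjustment over all genes tested). Fold changes are on that scale, which understates low genes. The script was tested on simulated data.

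Members and lists were chosen with earlier results of these data known. Named were all members, the highest and lowest tested genes of each list, genes past the limits in the 2 other Schwann cell lists, and the genes most like *Egr2*, *Ngfr* and the mean of the myelin proteins. *Mpp5*, *Jun*, *Junb*, *Egr3*, *Mog*, *Mobp*, the neurofilament genes and the muscle genes listed at 0 were named after their values were seen. Positions are from GENCODE vM21 and promoters from RefSeq, both on GRCm38. Alternatives were other pseudocounts (1 and 0.01), filters, scalings, no moderation, array weights and leaving out each mouse. A Y-linked covariate, only the 4 mice with Y-linked transcripts, and leaving out mice 2278 and 2279 together were added after seeing the data. Tables were made with Python 3.11.15. Results for some genes of the lists and of the pattern comparison are not reported here, and the list counts leave them out.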

Additional observations from a re-analysis of the deposited data

How the results depend on the processing

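All 7 tested members kept a positive log2 fold change in every alternative but 1, with mouse 2276 alone against the WT mice, where *Prx* was at -0.23, *Sox10* at -0.50 and *Egr2* at -0.67, *Mag* at 0.73 and *Pmp22* at 0.51 no longer passed the unadjusted limit, *Mbp* was at 0.31, and the median was -0.28 for the other myelin and -0.059 for the other immature or repair genes. That fit takes the spread of its lone HrasG12V mouse from the WT mice, and its counts, 6312 genes past the unadjusted and 4200 past the adjusted limit with 1 member, are not comparable. Members past the unadjusted limit, 3 of 7, numbered 1 when libraries were rescaled to the same total, 5 with array weights (22.8% of all genes tested), 5 with the Y-linked covariate (11.8%), 5 in the 4 mice with Y-linked transcripts (20.1%), and 2 to 6 when single mice were left out (4.54% to 29.8%). Rescaling to the same total left *Mag* at 1.12 and *Pmp22* at 0.98 past no limit, as did quantile normalization (1.05) and no moderation (0.99) for *Pmp22*. Array weights brought *Prx* (1.31) and *Sox10* (0.83) past the limit, the Y-linked covariate *Mbp* (1.25) and *Prx* (0.86), and the 4 mice *Prx* (1.22) and *Sox10* (0.77). When single mice were left out, values ran from 0.94 to 1.75 for *Mbp*, 0.74 to 1.32 for *Pmp22*, 0.58 to 1.40 for *Prx*, 0.92 to 1.32 for *Mag*, 0.12 to 0.90 for *Sox10*, 0.10 to 1.01 for *Egr2* and 1.27 to 1.91 for *Ngfr*. Adjusted limma p-values of *Ngfr* ran from 0.00774, without mouse 2276, to 0.970, those of *Mag* from 0.0473 and those of *Prx* from 0.0427, both also without mouse 2276, to 0.970 and 0.9999.

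Genes past the unadjusted limit, 1358, numbered 712 when rescaled to the same total, 3042 with array weights, 2681 in the 4 mice, and 606 to 3979 when single mice were left out, highest without mouse 2276. Genes past the adjusted limit, 8, numbered 5 with a pseudocount of 1, 1 with no moderation, 572 with array weights, 319 in the 4 mice, and 7 to 1291 when single mice were left out. The myelinating minus repair difference, 0.15, was -0.20 with a pseudocount of 0.01, with *Gfap* at 0 in 1 WT mouse. The causes were not tested. The WT mice were littermates, but the labels do not say which mice share a litter, so no paired analysis was possible. Reads per library are not known from the FPKM, so no counting error could be given, and *Gfap* is the member nearest to 0.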
